A study of Mus musculus with 26 samples.

Results

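The comparison described here is the effect of LY294002 (LY), an inhibitor of phosphoinositide 3-kinase (PI3K), on the transcripts of the mouse inner cell mass (ICM), pooled over embryos grown with and without added FGF4. All 26 libraries of the series entered it, 13 with LY and 13 without, placed by their labelled treatment. The libraries with LY were 7 ICMs grown in 10 µM LY (LY) and 6 grown in LY together with FGF4 and heparin at 1 µg/ml (LY+FGF4). Those without LY were 5 ICMs grown in the DMSO vehicle (DMSO) and 8 grown in FGF4 and heparin (FGF4). The LY main effect is the LY coefficient of a linear model with one term for LY and one for FGF4, so it weighs LY against DMSO and LY+FGF4 against FGF4 in a single estimate. Each library is 1 ICM of a CD-1 embryo, a separate individual, taken at E2.75 as a morula, grown for 24 hours in KSOM medium, freed of its zona pellucida and stripped of outer cells by immunosurgery. Embryos of 5 litters had been mixed before they were shared out, so the litter of a library is unknown, and all labels carry the same date. PI3K activity itself was not measured in these libraries.

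PI3K makes a membrane lipid that recruits the kinase AKT, and AKT in turn restrains FOXO factors and the TSC complex, which releases the growth kinase mTORC1. LY294002 blocks PI3K and is known to inhibit mTOR as well. Downstream of mTORC1, the factor ATF4 drives genes for amino acid uptake, serine and proline synthesis and tRNA charging, and SREBP factors drive genes for cholesterol and fatty acid synthesis, while TFEB and TFE3, which mTORC1 holds back, drive lysosomal and autophagy genes. In the embryo at this stage the ICM divides into epiblast, marked by NANOG and SOX2 and a source of FGF4, and primitive endoderm, marked by GATA6, SOX17 and GATA4 and dependent on FGF signalling through ERK.

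Levels are TPM (length-corrected transcript shares) computed by the authors and can be set side by side between genes. The number of reads behind a library is unknown. Differences are on the log2(TPM + 1) scale, which understates the change of genes with low TPM. A gene was called when the Benjamini-Hochberg adjusted p of limma, taken over all 12034 genes tested, was under 0.05. The libraries with LY listed fewer genes at a TPM of at least 1, with a lowest, median and highest number of 7486, 9860 and 10215, against 8315, 10575 and 11367 in libraries without LY. The median was 10089 in LY, 10692 in DMSO, 8650.5 in LY+FGF4 and 10504.5 in FGF4, and 6 libraries listed fewer than 9000 genes, 4 of LY+FGF4 and 2 of FGF4. A fit with this number of listed genes as a covariate is given beside most of the gene groups, and the cause of the lower number was not tested. Every library carried Pou5f1, Gata6 and Krt8, and the summed levels of epiblast and primitive endoderm markers were at least 491.2 and 843.1 TPM in each. Of the trophectoderm markers, which immunosurgery should remove, Elf5 was listed at 0 in 12 of 13 libraries with LY and 12 of 13 without, and Gata2 in 12 of 13 and 11 of 13, while the keratin gene Krt8 was between 67.7 and 531 TPM with LY and between 235 and 430 TPM without. The summed level of the 21 trophectoderm markers had a median of 2833 TPM in LY (2305 to 3261), against 2165 TPM in DMSO (1725 to 2967), and of 1965 TPM in LY+FGF4 (875.5 to 2886), against 1220 TPM in FGF4 (893.7 to 2365). Oocyte-derived transcripts summed to a median of 2179 TPM in LY and 2452 TPM in DMSO, and of 963 TPM in LY+FGF4 and 1233 TPM in FGF4. A sum weighs high markers most, and Sfn alone averaged 923 TPM with LY and 437 TPM without. Of 19 tested trophectoderm markers, 11 had a negative LY main effect (median -0.157). Their mean on the log2 scale, used as a score, ran from 4.386 to 4.854 in LY and 4.587 to 5.529 in DMSO. With FGF4 it ran from 2.472 to 5.555 in LY+FGF4 and 3.445 to 4.94 in FGF4. With this score as a covariate, 622 genes were called in place of 562. Y-linked genes gave a further score, their mean log2 level. It was above 0 in LY replicates 2, 4, 5, 6 and 7 and DMSO replicates 7 and 9. With FGF4 it was above 0 in LY+FGF4 replicate 2 and FGF4 replicates 1 and 5. Embryos with Y-linked transcripts were thus unevenly shared between LY and DMSO, and the main fit has no term for sex. With the Y-linked score as a covariate, 563 genes were called. Lamp2 and Tmsb4x, described below, lie on the X chromosome.

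With FGF4 held, more genes were lower with LY than higher. Of 12034 genes tested, 562 were called (4.67%), of which 126 were higher with LY (1.05%) and 436 were lower (3.62%). The genes called higher had a median difference of 1.04 on the log2 scale and a median level of 110 TPM in libraries without LY, and those called lower had a median difference of -1.74 and a median level of 38.1 TPM. A difference of at least 2-fold was seen in 64 of the genes called higher and 331 of those called lower. The median difference over all genes tested was -0.18, which is the base against which the gene groups below are set. It was -0.0023 after quantile normalization, which called 501 genes, 198 higher and 303 lower, so that 39.5% of calls were higher instead of 22.4%. With the number of listed genes as a covariate, 192 genes were called, 107 higher and 85 lower, and 118 of the 562 were among them.

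The pooled estimate called many genes that neither background called alone. Without added FGF4, LY against DMSO called 45 genes (0.374%), 9 higher (0.0748%) and 36 lower (0.299%). With added FGF4, LY+FGF4 against FGF4 called 427 genes (3.55%), 87 higher (0.723%) and 340 lower (2.83%). Both counts rest on 1 estimate of the spread per gene, shared by groups of unlike spread. The median correlation of a library with its own group was 0.888 to 0.902 in DMSO and 0.83 to 0.858 in LY. It was 0.76 to 0.846 in FGF4 and 0.707 to 0.765 in LY+FGF4. With library weights the order turned round, to 499 genes without FGF4 and 102 with it, so these counts do not rank the backgrounds. Of the 562 genes of the main effect, 21 were called in both backgrounds, 17 only without FGF4, 245 only with it and 279 in neither. The main effect in turn left out 7 genes called without FGF4 and 161 called with it. The sign of the difference was the same in both backgrounds for 560 of the 562, but these were chosen from both backgrounds together, and over all genes tested the share was 62.1%. Across the 12034 genes the effects in both backgrounds, which share no library, had a Pearson r of 0.332 and a Spearman rho of 0.306, as a description over genes that are not independent. By the interaction test 6 genes differed between the backgrounds (0.0499%), and they are described at the end.

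**Figure D1:**
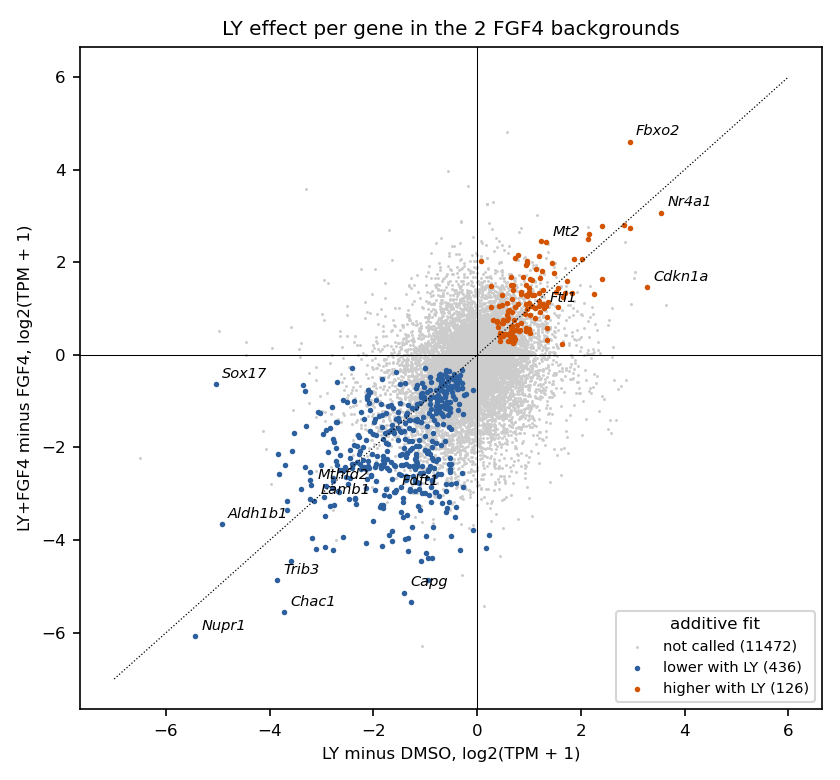
LY effect per gene without added FGF4 (horizontal axis, LY minus DMSO, log2(TPM + 1)) and with it (vertical axis, LY+FGF4 minus FGF4, same unit). Grey points are the genes not called in the additive fit, blue the 436 called lower and orange the 126 called higher with LY; Nupr1 lies at -5.43 without FGF4 and -6.08 with it, Sox17 at -5.05 and -0.63, and the dotted line marks equal effects.

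Complete separation of the arms was rare. In 3 genes (0.0249%) all 13 libraries with LY were below all 13 without, and in 3 genes (0.0249%) all were above. The lower ones were Nupr1, a small stress-induced chromatin protein, Anp32b, a histone chaperone, and Ciao2a, a factor of cytosolic iron-sulfur protein assembly. The higher ones were Ftl1, the ferritin light chain, Mkrn1, a ubiquitin ligase, and Mlf2. Anp32b, Ciao2a, Mkrn1 and Mlf2 were singled out after their values were seen. Their differences were modest in size, at -0.71 for Anp32b, -0.87 for Ciao2a, 0.77 for Mkrn1 and 0.73 for Mlf2.

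Among 30 gene lists, those of amino acid supply, sterol synthesis and primitive endoderm had the lowest medians. The plot of LY effects by list shows the ranking, running from a median of -1.47 for cholesterol synthesis and uptake to 0.37 for p53 targets. Counts of calls in each list can be set against the shares over all genes, 1.05% higher and 3.62% lower. Lists for the PI3K and mTOR pathway itself, the unfolded protein response, epiblast genes, apoptosis regulators and oocyte-derived transcripts had no member called in either direction. At an unadjusted p under 0.05, 4 of 32, 3 of 24, 2 of 12, 1 of 17 and 2 of 8 members of these lists passed with limma, where 20% of all 12034 genes did.

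**Figure D2:**
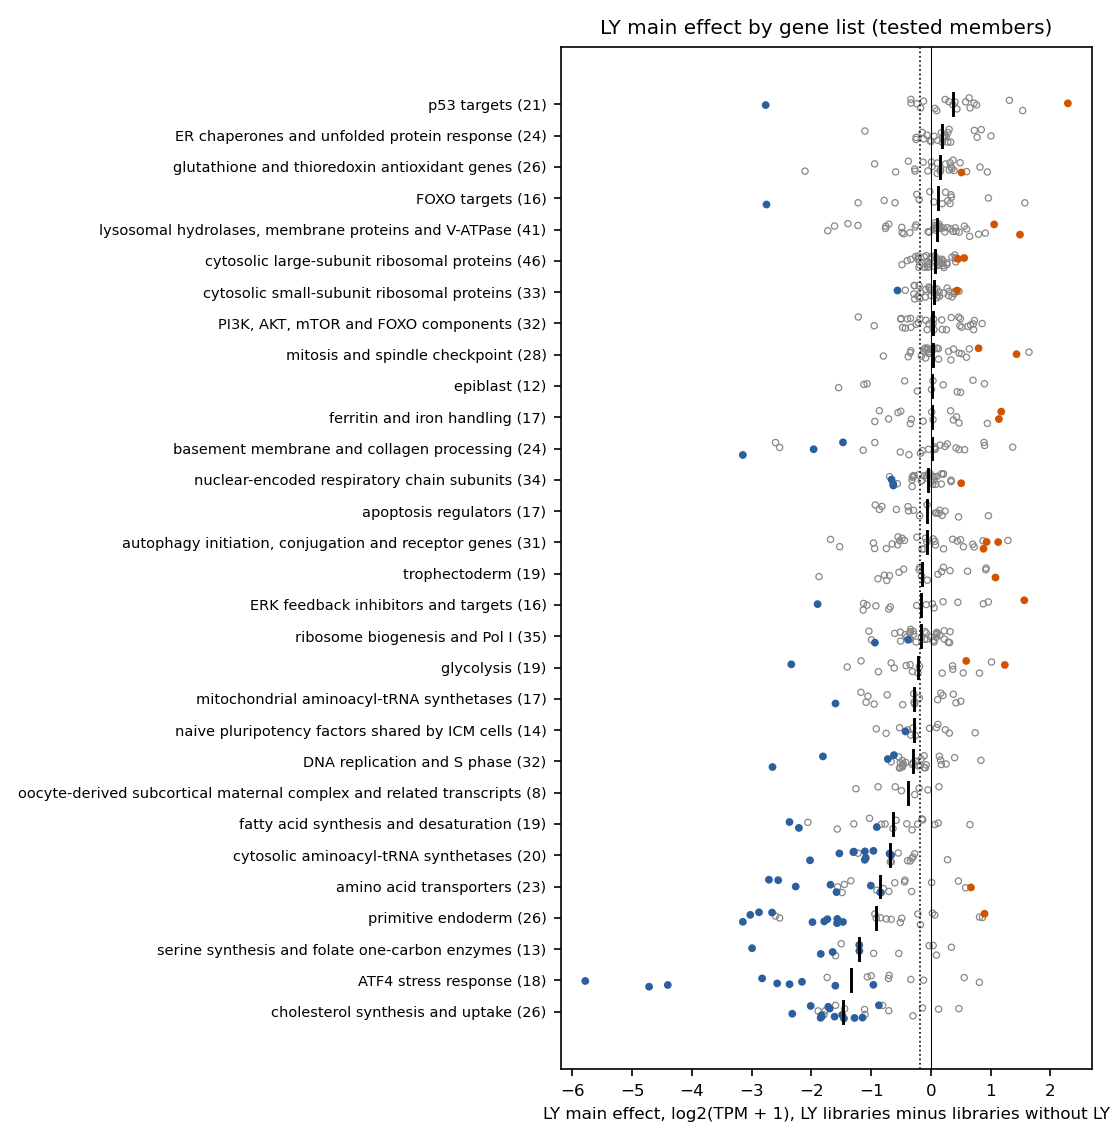
LY main effect of each tested member (horizontal axis, log2(TPM + 1), libraries with LY minus libraries without) for 30 gene lists, with the number of tested members in brackets. Blue points were called lower and orange points higher, open points were not called, black bars are list medians, and the dotted line is the median of all genes tested (-0.18); filled blue points gather in the lists with the lowest medians.

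The largest falls of all were of genes in the ATF4 stress response. Of 18 tested members of this list, 9 were called lower and none higher, where 3.62% of all genes were called lower, and the list median was -1.33 against -0.18 over all genes. Nupr1 fell in both backgrounds. It was listed at 0 in 5 of 7 LY libraries and reached 25.7 TPM at most, whereas it stood at 29.6, 56.9, 82.0, 145 and 236 TPM in the 5 DMSO libraries. In LY+FGF4 it was at 0 in 4 of 6 libraries with a highest value of 23.7 TPM, against a lowest, median and highest of 91.2, 177 and 290 TPM in FGF4. No library with LY reached the lowest library without it, and the main effect was -5.78 (SE 0.57, adjusted p = 2.51e-07). Chac1 encodes an enzyme that degrades glutathione. It was at 0 in 12 of 13 libraries with LY, the exception being 5.64 TPM in an LY library, against 4.31, 13.2, 18.1, 29.9 and 33.5 TPM in DMSO and 14.8 to 97.8 TPM in FGF4. Its arms overlapped only through that single LY library, and the main effect was -4.72 (SE 0.42, adjusted p = 5.10e-08). Trib3, a pseudokinase that binds AKT, was at 0 in 9 of 13 libraries with LY and had a highest value of 17.7 TPM, against 10.2 to 118 TPM without LY. The arms overlapped through few libraries, with a main effect of -4.40 (SE 0.54, adjusted p = 9.60e-06). For genes at 0 in most libraries with LY the fitted difference depends on the pseudocount and is not a bound.

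Other members of the list fell less far. Herpud1, of protein degradation at the endoplasmic reticulum, fell (-2.82), as did Atf5, a related transcription factor (-2.36), and Pck2, mitochondrial phosphoenolpyruvate carboxykinase (-2.16). Atf4 itself, which encodes the factor, was also among the 9 called, with 24.7, 76.0 and 157 TPM as the lowest, median and highest with LY, against 49.0, 137 and 213 TPM without LY. Its main effect was -0.96 (SE 0.24, adjusted p = 0.0166), a smaller fall than those of Nupr1, Chac1 and Trib3. Asns, asparagine synthetase, had a difference of -1.0 and did not pass (adjusted p = 0.130). Ddit3, the factor CHOP, had -1.74 and did not pass either (adjusted p = 0.145). With the number of listed genes as a covariate, 6 of the 9 calls were kept, Nupr1, Chac1, Trib3, Atf5, Pck2 and Ddit4. The list of the unfolded protein response, which answers protein misfolding and shares upstream stress kinases with ATF4, had no call among 24 tested members (median 0.19). That count depends on how genes were filed. Herpud1, which acts at the endoplasmic reticulum and was called lower, was counted in the ATF4 list and not in this one.

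Promoters were read for the core of the CARE motif, the composite site that ATF4 dimers bind. The core was spelled TGATGNAA and was searched on both strands in the 250 bases before the RefSeq start of each gene (build GRCm38.p6). It was present in 4 of the 9 ATF4 list members called lower (44.4%), in 3 of the 7 cytosolic tRNA synthetase genes called lower that had a sequence (42.9%), in 1 of 7 amino acid transporter genes called lower (14.3%), in 0 of 5 serine and one-carbon genes called lower, in 25 of 348 genes called lower (7.18%) and in 3 of 100 genes called higher (3.0%). The share was 2.18% over 9090 genes tested and 3.91% over all 27025 genes with a sequence. Among tested list members with a sequence, called or not, it was 5 of 17 for the ATF4 list (29.4%). It was 3 of 13 for cytosolic tRNA synthetases (23.1%), 1 of 18 for transporters (5.56%) and 0 of 11 for serine and one-carbon genes. The ATF4 list gathers genes of the ATF4 response, so a high share in it follows from the choice of genes and does not bear on LY. Trib3 and Atf5 were among the ATF4 list members called lower without the core. A match is a description of the letters and not a bound site. The following 4 promoters, each 200 bases up to the base before the start, are shown because their genes fell with LY and hold the core, and capitals mark it as it reads on the gene's strand (TTGCATCA). They are Chac1 at chr2:119351042-119351241 (plus strand), Nupr1 at chr7:126625471-126625670 (minus strand), the alanyl-tRNA synthetase gene Aars at chr8:111033642-111033841 (plus strand), and the threonyl-tRNA synthetase gene Tars at chr15:11399659-11399858 (minus strand).
Chac1: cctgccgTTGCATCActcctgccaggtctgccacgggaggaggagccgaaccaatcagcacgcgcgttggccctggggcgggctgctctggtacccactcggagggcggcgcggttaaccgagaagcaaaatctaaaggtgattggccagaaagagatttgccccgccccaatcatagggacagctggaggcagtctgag
Nupr1: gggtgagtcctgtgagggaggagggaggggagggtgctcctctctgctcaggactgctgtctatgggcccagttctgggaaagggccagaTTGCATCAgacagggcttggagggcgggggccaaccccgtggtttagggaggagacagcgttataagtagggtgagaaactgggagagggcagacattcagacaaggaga
Aars: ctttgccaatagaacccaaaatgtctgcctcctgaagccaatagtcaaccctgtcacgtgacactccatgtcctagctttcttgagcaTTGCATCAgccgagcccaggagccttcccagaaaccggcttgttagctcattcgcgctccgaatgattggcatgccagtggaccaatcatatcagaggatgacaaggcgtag
Tars: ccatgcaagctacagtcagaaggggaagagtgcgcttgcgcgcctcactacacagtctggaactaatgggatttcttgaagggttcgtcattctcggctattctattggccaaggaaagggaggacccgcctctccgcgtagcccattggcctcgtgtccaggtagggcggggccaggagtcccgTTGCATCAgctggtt
Counted from the base before the start as -1, the first base of the core lies at -193 in Chac1, -110 in Nupr1, -112 in Aars and -15 in Tars.

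Genes of serine synthesis and a mitochondrial folate enzyme were lower as well. Of 13 tested members of the serine and one-carbon list, 5 were called lower and none higher (median -1.20). Mthfd2, the mitochondrial methylenetetrahydrofolate dehydrogenase, fell most. It had 1.37, 10.6 and 16.3 TPM as the lowest, median and highest in LY, against 37.0, 86.7, 102, 107 and 114 TPM in DMSO, and 6.93, 12.3 and 38.4 TPM in LY+FGF4, against 75.8, 104 and 156 TPM in FGF4. Within each background the groups did not overlap, and the main effect was -2.99 (SE 0.31, adjusted p = 3.76e-07). Psat1, phosphoserine aminotransferase, averaged 206 ± 92.5 TPM with LY and 594 ± 149 TPM without (SD, n = 13 each). In LY it had 130 to 385 TPM, against 554 to 751 TPM in DMSO, and in LY+FGF4 90.5 to 375 TPM, against 357 to 940 TPM in FGF4. A single LY+FGF4 library lay above the lowest FGF4 library, the groups without FGF4 were apart, and the main effect was -1.64 (SE 0.19, adjusted p = 5.01e-06). Phgdh, which commits glycolytic carbon to serine, fell (-1.84), as did Psph, which completes serine (-1.20), and Shmt1, which moves a carbon from serine to folate in the cytosol (-1.20). Psat1 and Mthfd2 were the 2 calls kept with the number of listed genes as a covariate.

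Genes of proline and aldehyde metabolism were among the 10 lowest as well. Aldh18a1, which makes the proline precursor from glutamate, had a lowest, median and highest of 0, 8.36 and 40.2 TPM in LY, against 27.7, 51.4, 68.0, 123 and 161 TPM in DMSO. In LY+FGF4 the values were 0, 48.4 and 185 TPM, against 217, 333 and 874 TPM in FGF4. Its groups overlapped without FGF4 and were apart with it, and the main effect was -3.59 (SE 0.73, adjusted p = 0.00374), no longer called with the number of listed genes as a covariate. Aldh1b1, a mitochondrial aldehyde dehydrogenase, was at 0 in 11 of 13 libraries with LY, against 1 of 13 without, and fell by 4.24 (SE 0.55, adjusted p = 2.11e-05). P2rx3, an ATP-gated ion channel, was listed at 0 in all 13 libraries with LY and had a median of 26.9 TPM without LY (0 to 150), and no fold is given. The other genes among the 10 lowest were Tmc6, Spp1, Tab1 and Slc4a5, with differences between -3.69 and -3.50. Of these Tab1 alone was called with the number of listed genes as a covariate, and Spp1, which encodes osteopontin, was also not called without the 6 libraries of few listed genes (-2.99).

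Amino acid transporters moved unevenly. Of 23 tested, 7 were called lower and 1 higher (median -0.85). Slc3a2, the heavy chain that carries several exchangers to the membrane, had 78.2, 164 and 170 TPM in LY as the lowest, median and highest, against 231, 247, 302, 303 and 328 TPM in DMSO. With LY+FGF4 the values were 138, 217 and 241 TPM, against 264, 314 and 460 TPM in FGF4. The groups did not overlap within either background, and the main effect was -0.85 (SE 0.14, adjusted p = 0.000662). Its light chains Slc7a7 (-2.71) and Slc7a6 (-1.01) fell, as did the arginine transporter Slc7a1 (-2.56), the glycine transporter Slc6a9 (-2.26) and the glutamine transporters Slc38a7 (-1.58) and Slc38a2 (-1.68). Slc38a4 was the member that rose (0.67). Slc7a5, the leucine exchanger, had a difference of -0.70 (adjusted p = 0.129). Slc3a2 was the single call kept with the number of listed genes as a covariate, and 7 of the 8 calls were kept without the 6 libraries of few listed genes.

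Cytosolic tRNA synthetases, which load amino acids onto tRNAs for translation, were mostly lower with LY. Of 20 tested, 10 were called lower and none higher, 19 had a negative difference, and the median was -0.69. Aars had 40.1, 64.5 and 83.9 TPM in LY as the lowest, median and highest, against 80.8, 141, 170, 237 and 278 TPM in DMSO. The LY+FGF4 values were 39.2, 79.5 and 290 TPM, against 202, 261 and 395 TPM in FGF4. A single DMSO library fell within the LY range and a single LY+FGF4 library within the FGF4 range, and the main effect was -1.53 (SE 0.24, adjusted p = 0.000258). Yars (-1.29), Gars (-1.11), Tars (-1.10), Sars (-1.09) and Nars (-0.96) fell too, genes that charge tyrosine, glycine, threonine, serine and asparagine. With the number of listed genes as a covariate, 5 calls were kept (Aars, Gars, Sars, Tars and Yars). Of 17 mitochondrial synthetases, 1 was called lower, Ears2 at -1.60, and this call was lost when any of 15 of the 26 libraries was left out (adjusted p up to 0.0637). The difference between these lists was not tested.

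Sterol synthesis was the list with the most calls in the downward direction. Of 26 tested genes of cholesterol synthesis and uptake, 13 were called lower and none higher, 24 had a negative difference, and the median was -1.47. Insig1, a sterol-responsive retention factor of the SREBP pathway, had a lowest, median and highest of 55.5, 103 and 435 TPM in LY, against 301, 315, 366, 370 and 550 TPM in DMSO. LY+FGF4 libraries had 18.03, 33.8 and 65.4 TPM, against 78.4, 147 and 292 TPM in FGF4. The groups overlapped without FGF4 and not with it, and the main effect was -1.83 (SE 0.28, adjusted p = 0.000155). Fdps, farnesyl diphosphate synthase, averaged 162 ± 90.2 TPM with LY and 500 ± 299 TPM without (SD, n = 13 each), with groups apart without FGF4, overlapping with it, and a main effect of -1.85 (SE 0.30, adjusted p = 0.000365). Fdft1, squalene synthase, fell (-2.32), as did the mevalonate pathway genes Mvd (-1.69) and Pmvk (-1.28).

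Fatty acid genes gave fewer calls. Of 19 tested genes of fatty acid synthesis, 3 were called lower, the desaturases Scd1 and Scd2 and malic enzyme Me1, and the median was -0.63. Scd1 had 16.6, 83.7 and 163 TPM in LY as the lowest, median and highest, against 194, 247, 280, 287 and 355 TPM in DMSO. In LY+FGF4 the values were 7.77, 26.5 and 93.4 TPM, against 61.1, 119 and 223 TPM in FGF4. The groups did not overlap without FGF4 and overlapped with it, and the main effect was -2.21 (SE 0.36, adjusted p = 0.000365). Scd2 fell by 2.37 (SE 0.31, adjusted p = 2.11e-05), whereas Fasn, fatty acid synthase, had a difference of -0.77 and Srebf1 one of 0.07, neither called. With the number of listed genes as a covariate, 3 sterol calls were kept (Mvd, Fdps and Insig1) and 2 desaturase calls. The sterol regulatory element, spelled TCACNCCAC, was in none of the 9 promoters of called sterol genes that had a sequence and in 1.21% of 9090 genes tested, which says only that these letters are not in those windows.

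**Figure D3:**
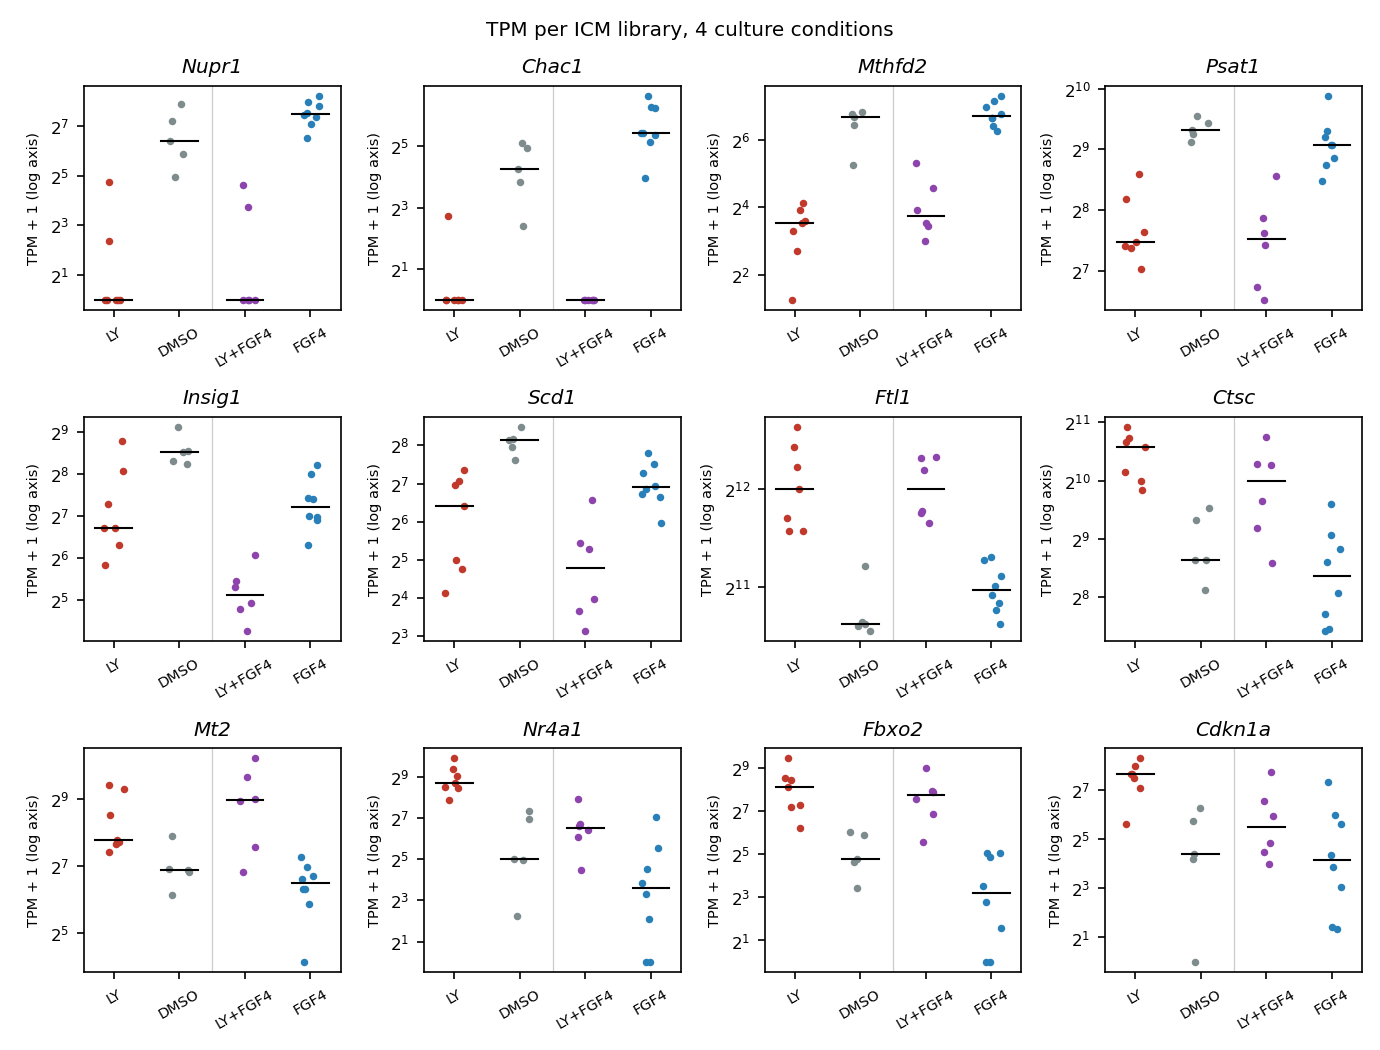
TPM + 1 (log axis) of 12 genes in each ICM library, with groups in the order LY, DMSO, LY+FGF4 and FGF4 and bars at the group medians. The first 6 genes sit lower with LY in both backgrounds, with Nupr1 at 0 in 9 of 13 libraries with LY, and the last 6 sit higher, with no overlap between the arms for Ftl1.

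The smallest p among the rises was that of a ferritin gene. Of 17 tested genes of iron handling, 2 were called higher, where 1.05% of all genes were, and none lower; both were ferritin chains, which store iron. Ftl1 had 3035, 4077 and 6302 TPM as the lowest, median and highest in LY, against 1505, 1564, 1578, 1606 and 2373 TPM in DMSO. With LY+FGF4 the values were 3210, 4079 and 5097 TPM, against 1577, 2004 and 2525 TPM in FGF4. Every library with LY exceeded every library without it, and the main effect was 1.14 (SE 0.12, adjusted p = 6.58e-07). Fth1, the heavy chain, averaged 2104 ± 781 TPM with LY and 885 ± 249 TPM without (SD, n = 13 each), with a main effect of 1.18 (SE 0.16, adjusted p = 2.14e-05). Both ferritin calls were kept with the number of listed genes as a covariate. Both genes have many processed copies in the genome, and it is not known here how the counting shared reads among copies. The transferrin receptor Tfrc had a difference of 0.94 that was not called (adjusted p = 0.135).

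In the pooled fit the calls among lysosomal and autophagy genes were all higher, where 1.05% of all genes tested were called higher and 3.62% lower. Of 41 lysosomal genes, 2 were called higher and none lower, the median was 0.10, and 29.3% had an unadjusted p under 0.05. Ctsc, a cathepsin that activates other proteases, had 910, 1521 and 1931 TPM as the lowest, median and highest in LY, against 278, 398, 399, 642 and 739 TPM in DMSO. The LY+FGF4 values were 381, 1017 and 1716 TPM, against 170, 329 and 777 TPM in FGF4. The groups were apart without FGF4 and overlapped with it, and the main effect was 1.49 (SE 0.24, adjusted p = 0.000370). Lamp2, a lysosomal membrane protein, rose by 1.06. Of 31 autophagy genes, 3 were called higher, the initiating kinase Ulk1 at 0.93, the receptor Calcoco1 at 1.13 and the lipid-binding Wipi2 at 0.88, and none lower. The median was -0.07, and 45.2% of this list had an unadjusted p under 0.05 in either direction, where 20% of all genes did. The call of Wipi2 was lost when any of 7 of the 26 libraries was left out (adjusted p up to 0.0664). Its main effect averages 1.64 without FGF4 and 0.24 with it. The interaction test of that difference gave an unadjusted p of 0.00245 and an adjusted p of 0.428. In LY+FGF4 against FGF4, 1 autophagy gene was called higher and 1 lower. With the number of listed genes as a covariate, Ctsc, Ulk1 and Calcoco1 were still called, and Lamp2 (0.60) and Wipi2 (0.93) were not. Of 16 FOXO targets, 1 was called, Gadd45a, which fell by 2.76, and the median was 0.12. The call of Gadd45a was not kept with the number of listed genes as a covariate (-1.32). Among 32 genes of the PI3K and mTOR pathway none was called in the pooled fit, and the differences of Pik3ca (0.62), Akt1 (0.73) and Mtor (-0.06) had adjusted p from 0.0817 to 0.960. In LY+FGF4 against FGF4, 1 of the 32 was called higher and 0 lower.

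The largest rises were of single genes with varied roles. Fbxo2, an F-box protein that binds glycoproteins, had 73.1, 278 and 692 TPM as the lowest, median and highest in LY, against 9.70, 23.8, 26.4, 58.5 and 63.0 TPM in DMSO. LY+FGF4 libraries had 46.6, 210 and 507 TPM, against 0, 8.24 and 32.2 TPM in FGF4. The groups did not overlap within either background, and the main effect was 3.84 (SE 0.56, adjusted p = 0.000101). Nr4a1, an orphan nuclear receptor of the immediate early class, had 235, 412 and 961 TPM in LY, against 3.65, 29.7, 31.4, 122 and 159 TPM in DMSO. In LY+FGF4 the values were 20.96, 90.6 and 240 TPM, against 0, 11.1 and 130 TPM in FGF4. The groups were apart without FGF4 and overlapped with it, and the main effect was 3.29 (SE 0.63, adjusted p = 0.00229). Nrg1, a ligand of ERBB receptors, rose by 2.83 (SE 0.51, adjusted p = 0.00113), with 10.9 to 70.7 TPM with LY and 0 to 14.8 TPM without.

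Mt2, a metal-binding metallothionein, had 172, 219 and 683 TPM as the lowest, median and highest in LY, against 69.1, 112, 118, 120 and 241 TPM in DMSO. With LY+FGF4 the values were 112, 510 and 1201 TPM, against 16.6, 88.7 and 154 TPM in FGF4. Both pairs of groups overlapped, and the main effect was 1.93 (SE 0.36, adjusted p = 0.00180). Tent5c, a poly(A) polymerase (2.61), Tdrd5, a germline Tudor protein (2.41), and Tmsb4x, an actin-binding peptide with many genomic copies (2.82), rose, but none of these 3 was called with the number of listed genes as a covariate or without the 6 libraries of few listed genes. Cdkn1a, the cell cycle inhibitor p21, had 47.8, 196 and 310 TPM in LY, against 0, 17.1, 19.9, 51.7 and 75.6 TPM in DMSO, and 14.7, 44.2 and 209 TPM in LY+FGF4, against 1.52, 16.6 and 158 TPM in FGF4. Both pairs of groups overlapped. Its main effect was 2.29 (SE 0.66, adjusted p = 0.0385), a call lost when any of 15 of the 26 libraries was left out (adjusted p up to 0.0676). The calls of Katnal2 (2.33) and Crb3 (1.90), the remaining genes of the 10 highest, were lost for 19 and 18 of the 26 libraries (adjusted p up to 0.0822 and 0.0945). Of 21 p53 targets, Cdkn1a was the one called higher and Gadd45a the one called lower (median 0.37). With the number of listed genes as a covariate Cdkn1a was called (3.36) and Gadd45a was not (-1.32).

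Primitive endoderm genes were lower with LY in the pooled fit. Of 26 tested members, 10 were called lower and 1 higher, and the median was -0.93. The summed level of the 29 markers had a lowest, median and highest of 843.1, 1466 and 2015 TPM in LY, against 1567, 1633 and 2874 TPM in DMSO. In LY+FGF4 this sum was 1914, 3923 and 5820 TPM, against 2382, 5991 and 7249 TPM in FGF4, so both pairs of groups overlapped. Of these markers Ttr was listed at 0 in all 26 libraries and Sox7 in all 13 with LY. In whole ICMs fewer cells of a type and less RNA per cell cannot be told apart. Sox17, a transcription factor of the lineage, had 0, 0 and 21.02 TPM in LY as the lowest, median and highest, against 11.7, 69.0, 110, 266 and 299 TPM in DMSO. The LY+FGF4 values were 115, 487 and 768 TPM, against 431, 663 and 910 TPM in FGF4. All LY libraries but 1 lay below the lowest DMSO library, while LY+FGF4 and FGF4 libraries overlapped widely. The main effect of -2.66 (SE 0.65, adjusted p = 0.0155) thus averages -5.05 without FGF4 and -0.63 with it, and the test of that difference gave an unadjusted p of 0.000155 and an adjusted p of 0.143.

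Among the other lineage regulators Gata4 and Pdgfra were called and Gata6 was not. Gata4 had 0, 0 and 1.74 TPM in LY, against 0.88, 2.33, 5.87, 6.53 and 29.1 TPM in DMSO, and 1.97, 90.0 and 125 TPM in LY+FGF4, against 34.1, 128 and 216 TPM in FGF4. Both pairs of groups overlapped. Its main effect was -1.98 (SE 0.55, adjusted p = 0.0323), and the call was lost without DMSO replicate 6, 7 or 8, FGF4 replicate 5, or LY+FGF4 replicate 3 or 8 (adjusted p up to 0.0690). Pdgfra, the PDGF receptor of the lineage, fell by 1.57 (adjusted p = 0.0424), a call lost when any of 15 of the 26 libraries was left out (adjusted p up to 0.0818). As for Sox17, this averages unlike values, -2.71 without FGF4 and -0.59 with it. The interaction test of Pdgfra gave an unadjusted p of 0.0182 and an adjusted p of 0.696. Gata6, the earliest factor of the lineage, had 135, 164 and 232 TPM in LY, against 210, 218, 233, 294 and 312 TPM in DMSO, and 146, 393 and 603 TPM in LY+FGF4, against 199, 311 and 456 TPM in FGF4. Its groups overlapped in both backgrounds and the main effect of -0.22 (SE 0.21, adjusted p = 0.602) did not pass. A p that misses the threshold does not show that Gata6 was unaltered.

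Matrix and endocytic genes of the lineage were also among the 10. Lamb1, a laminin chain of the basement membrane, had 11.8, 35.4 and 134 TPM as the lowest, median and highest in LY, against 232, 321, 382, 486 and 633 TPM in DMSO. LY+FGF4 libraries had 4.77, 319 and 762 TPM, against 123, 1533 and 2389 TPM in FGF4. The groups were apart without FGF4 and overlapped with it, the difference was -3.15 in each background, and the main effect was -3.15 (SE 0.64, adjusted p = 0.00445). Sparc, a matrix glycoprotein (-1.47), and Cubn, an endocytic receptor (-1.73), fell. Srgn, a proteoglycan core protein, was listed at 0 in all 13 libraries with LY, against 4 of 13 without, and no fold is given. Hnf4a, Aqp8 and Amn complete the 10 calls. Apoe, an apolipoprotein, went the other way and rose by 0.90 (SE 0.21, adjusted p = 0.0128), with 375 to 1663 TPM with LY and 302 to 903 TPM without. None of these 11 calls was kept with the number of listed genes as a covariate, and 5 were kept without the 6 libraries of few listed genes (Sox17, Cubn, Lamb1, Sparc and Apoe). Of 24 basement membrane genes, 8 of which are also on the primitive endoderm list, 3 were called lower, Lamb1, Sparc and Hspg2, and the median was 0.01. The call of Hspg2, the proteoglycan perlecan, was lost when any of 11 of the 26 libraries was left out (adjusted p up to 0.0736).

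**Figure D4:**
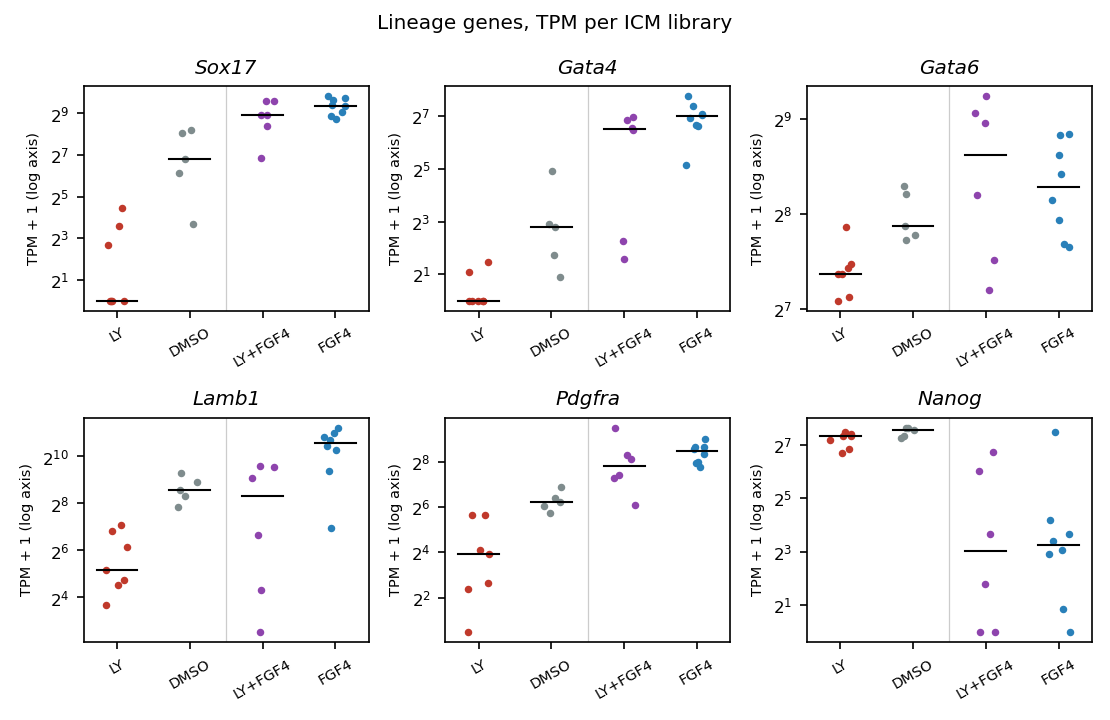
TPM + 1 (log axis) of 6 lineage genes in each ICM library, with groups in the order LY, DMSO, LY+FGF4 and FGF4 and bars at the group medians. Sox17 is at 0 in 4 of 7 LY libraries but between 115 and 768 TPM in LY+FGF4, and Nanog is low in most libraries with FGF4 whether or not LY was present.

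Epiblast genes were not called in either direction. None of 12 tested members passed, and the median was 0.02. Nanog, a core factor of the lineage, had 101, 158 and 177 TPM in LY as the lowest, median and highest, against 152, 160, 186, 195 and 198 TPM in DMSO. In LY+FGF4 the values were 0, 7.12 and 105 TPM, against 0, 8.48 and 176 TPM in FGF4. Both pairs overlapped, with a main effect of -0.23 (SE 0.67, adjusted p = 0.888) whose sign turned with the number of listed genes as a covariate. Sox2 (0.70), Klf2 (0.90) and Fgf4 (-0.44) did not pass. Of 14 naive pluripotency genes shared by ICM cells, 1 was called, Pou5f1, the factor OCT4. It had 936, 1222 and 1461 TPM in LY, against 1350, 1440, 1604, 1653 and 1699 TPM in DMSO, and 538, 850 and 1034 TPM in LY+FGF4, against 950, 1089 and 1495 TPM in FGF4. Both pairs of groups overlapped, and the main effect was -0.44 (SE 0.10, adjusted p = 0.0132), not called with the number of listed genes as a covariate.

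The calls among trophectoderm genes and genes of ERK signalling can be set against the 4.67% called over all genes tested. Of 19 tested trophectoderm genes, 1 was called, Sfn, the epithelial protein 14-3-3 sigma, which rose by 1.08 (SE 0.22, adjusted p = 0.00484), while the defining factor Cdx2 had a difference of -1.87 that did not pass (adjusted p = 0.224). Cdx2 was called in 2 of the 14 other settings, among them the fit without the 6 libraries of few listed genes (-3.13). Sfn had 309 to 1761 TPM with LY and 70.6 to 1015 TPM without, and was not called without the 6 libraries of few listed genes (0.68). It is itself one of the summed trophectoderm markers, and it was still called, at 1.14, with their score as a covariate. Of 16 feedback inhibitors and targets of ERK, Jun was called higher (1.56) and Dusp4 lower (-1.90), with a median of -0.16. These 2 genes differed in their response to FGF4 itself. The FGF4 term of the same limma fit was 0.31 for Jun (adjusted p = 0.667) and 5.29 for Dusp4 (adjusted p = 2.50e-07). Dusp4, an ERK phosphatase, had 0, 0 and 9.84 TPM in LY, against a median of 36.0 TPM in DMSO (1.03 to 52.6), and 67.0, 252 and 352 TPM in LY+FGF4, against 113, 362 and 540 TPM in FGF4. Its call was lost when any of 9 of the 26 libraries was left out (adjusted p up to 0.0700). The main effect of Dusp4 averages -3.36 without FGF4 and -0.65 with it. The interaction test of that difference gave an unadjusted p of 0.00811 and an adjusted p of 0.581. Neither Jun nor Dusp4 was called with the number of listed genes as a covariate. Dusp6 (0.05) and Spry4 (-1.13) did not pass, and the sign of Dusp6 turned under several settings.

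Lists of growth, cell division and energy genes had medians between -0.31 and 0.16. Of all genes tested, 1.05% were called higher and 3.62% lower, and whether any of these lists departs from that was not tested. Among 46 large-subunit and 33 small-subunit ribosomal protein genes, 3 were called higher, among them Rplp0 (0.45) and Rpl31 (0.56), and 1 lower (Fau, -0.56), with medians of 0.06 in each list; these genes have many processed copies and their values are uncertain. Of 35 ribosome biogenesis genes 2 were called lower, Rrp9 at -0.94 and Nop58 at -0.38, the second lost for 18 of the 26 libraries. Of 32 replication genes 4 were called lower (median -0.31). Tk1, thymidine kinase, was the largest at -2.65 (SE 0.49, adjusted p = 0.00180), with 0 to 183 TPM with LY and 158 to 452 TPM without, and Fen1 (-0.72) and Mcm4 (-0.62) followed, with Ccne1 at -1.81 lost for 9 of the 26 libraries. Of 28 mitotic genes 2 were called higher, Cenpa at 0.80 and Nusap1 at 1.43, the second lost for 9 libraries. In glycolysis the glucose transporter Slc2a1 (1.24) and Pkm (0.59) rose and Pfkm (-2.34) fell among 19 tested. Of 34 respiratory chain genes Ndufa4 rose (0.51) and Uqcrc1 (-0.63), Cyc1 (-0.63) and Sdha (-0.66) fell, the calls of Cyc1 and Sdha being lost for 16 and 18 libraries. Of 26 antioxidant genes Prdx1 alone was called, at 0.51. With the number of listed genes as a covariate none of the ribosomal, replication, mitotic or glycolytic calls was kept.

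Whether FGF4 alters the response to LY was asked with the interaction, in which the difference between LY and DMSO is subtracted from that between LY+FGF4 and FGF4. By this test 6 of 12034 genes differed between backgrounds, 3 in each direction (0.0249% each), and 726 did so at an unadjusted p under 0.05 (6.03%). Wac, an adaptor of histone ubiquitination, had 217, 296 and 496 TPM as the lowest, median and highest in LY, against 247, 281, 294, 355 and 356 TPM in DMSO. With LY+FGF4 the values were 810, 964 and 1864 TPM, against 139, 298 and 402 TPM in FGF4. Only with FGF4 were its groups apart, and its interaction was 1.96 (adjusted p = 0.0213). Kptn, a component of the KICSTOR complex that restrains mTORC1, had 9.72, 12.1 and 48.7 TPM in LY, against 6.91, 7.32, 12.04, 24.6 and 25.1 TPM in DMSO, and 0, 0 and 4.49 TPM in LY+FGF4, against 10.2, 27.8 and 43.1 TPM in FGF4. It was lower with LY in the presence of FGF4, with overlapping groups in its absence, and an interaction of -4.12 (adjusted p = 0.0387). Ybx3, Rcc2, Serhl and N4bp2 are the other 4, with interactions of 2.68 for Ybx3, 3.87 for Rcc2, -4.34 for Serhl and -4.55 for N4bp2. Of the 6, 3 were also called in the main effect (Wac at 1.12, Kptn at -1.99 and Serhl at -2.18), which for them is a mean of unequal effects. The main-effect call of Kptn was lost without FGF4 replicate 1 or without LY+FGF4 replicate 2, 3, 5 or 8 (adjusted p up to 0.0606).

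**Figure D5:**
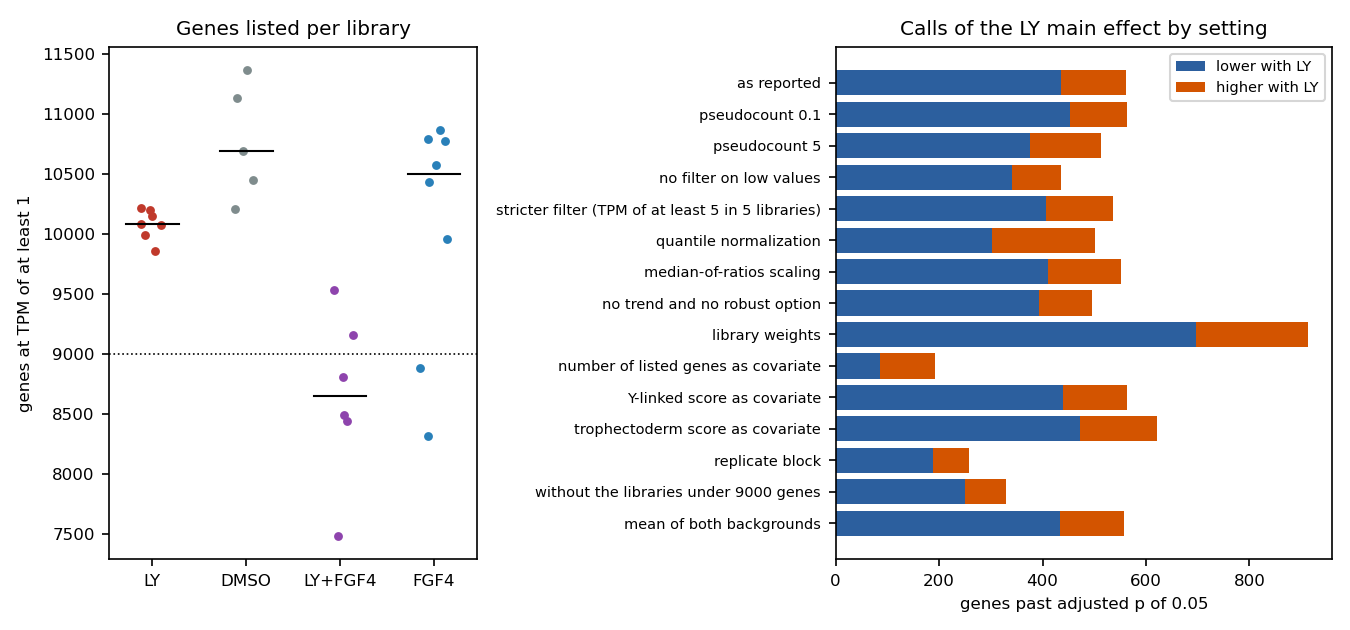
Left, number of genes at a TPM of at least 1 in each ICM library, with bars at the group medians and a dotted line at 9000 genes. Right, genes called in the LY main effect under each setting, lower in blue and higher in orange; the count is 562 as reported, 914 with library weights and 192 with the number of listed genes as a covariate.

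The number of calls ranged from 192 with the number of listed genes as a covariate to 914 with library weights, as the plot of calls by setting shows. The 10 genes of largest fall and 10 of largest rise kept their sign in every setting. Among the 105 genes chosen by rule, 94 were called, 78 of these were called whichever single library was left out, and 29 were called in all 14 other settings. These 29 include Nupr1, Chac1, Trib3, Mthfd2, Psat1, Aars, Insig1, Fdps, Scd1, Scd2, Ftl1, Fth1, Ctsc, Mt2, Nr4a1 and Fbxo2.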

How the data were processed

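FLASH-seq libraries of 26 single ICMs were analysed from 1 deposited table of TPM values, which the authors computed per gene symbol and scaled to the same sum in each library, so depth per library is unknown. The submitters' processing notes name STAR, RSEM and the build mm10; for their versions and the annotation, nothing is stated in the labels. The table held 0 further columns of per-sample values.

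A gene was tested if 5 or more libraries had it at 1 TPM or above (12034). On log2(TPM + 1), limma 3.58.1 in R 4.3.3 (trend and robust variance) fitted LY and FGF4 as additive terms, and a second fit with 1 mean per group gave the LY effect within each background and the interaction. P-values were adjusted over all genes by Benjamini-Hochberg, and the script was tested on simulated data. The members and gene lists were chosen with earlier results of these data known. Named genes are fixed lineage and signalling genes, the 10 highest and 10 lowest called genes with a mean of at least 5 TPM in the higher arm, up to 6 called members of each list by p, and 3 interaction genes in each direction. Akt1, Amn, Aqp8, Asns, Atf4, Ddit3, Ddit4, Fasn, Hnf4a, Krt8, Mtor, Pik3ca, Slc38a2, Slc38a4, Slc7a5, Srebf1 and Tfrc lie outside the rule and were chosen after their values were seen. Replicate numbers occur in several groups but the labels tie them to no litter or day, and residuals of the 31 same-numbered pairs had a median correlation of -0.00406 (-0.0824 to 0.068, 0 pairs above 0.1), so samples were not paired. The highest correlation between any pair of libraries was 0.9179, and none was a duplicate. Promoters came from RefSeq (GRCm38.p6). Alternatives were 14 other settings and the omission of each of the 26 libraries. Some named genes are not reported here.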

Additional observations from a re-analysis of the deposited data

Results flagged for a closer look

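Values per library of 25 genes were compared within groups, 99 series in all, and in 8 of them a single library stood apart from the others by Dixon's criterion, which chance meets in about 1 in 20. Chac1 was 5.64 TPM in LY replicate 6 and 0 in the other LY libraries, and Trib3 was 17.7 TPM in LY+FGF4 replicate 3 and 0 in the other LY+FGF4 libraries. Mthfd2 was 37.0 TPM in DMSO replicate 6, against 86.7 to 114 TPM in the other DMSO libraries. FGF4 replicate 6 was low for Gata4, at 34.1 TPM against 98.0 to 216 TPM, and for Lamb1, at 123 TPM against 663 to 2389 TPM. Ftl1 was 2373 TPM in DMSO replicate 8, against 1505 to 1606 TPM, and Fth1 was 4344 TPM in LY replicate 5, against 1714 to 2507 TPM. Mt2 was 16.6 TPM in FGF4 replicate 5, against 58.0 to 154 TPM.

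The LY effect differed between the backgrounds by the interaction test in 6 genes (limma, adjusted p under 0.05). Serhl was -4.18 with FGF4 and 0.16 without, Kptn was -3.88 and 0.24, and N4bp2 was -3.48 and 1.07, so their interactions were -4.34, -4.12 and -4.55. Rcc2 was 0.88 with FGF4 and -2.99 without, Ybx3 was 1.70 and -0.98, and Wac was 2.03 and 0.06, with interactions of 3.87, 2.68 and 1.96.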

How the results depend on the processing

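None of the 562 called genes changed sign under any of the 14 other settings, but the number of calls moved. The LY main effect called 914 genes with library weights, 192 with the number of listed genes as a covariate, 258 with the replicate block and 329 without the 6 libraries under 9000 listed genes, which leaves LY+FGF4 with 2 libraries, and 466 to 651 when single libraries were left out. With added FGF4 the 427 calls became 102 with library weights, 187 with the covariate, 224 with the replicate block, 169 without the 6 libraries and 283 to 581 with single libraries left out (283 without FGF4 replicate 7). Without added FGF4 the 45 calls became 29 with the Y-linked score as a covariate, 499 with library weights, 28 without trend and robust variance, 19 with the listed-gene covariate, 5 with the replicate block, 130 without the 6 libraries and 16 to 60 with single libraries left out (20 without DMSO replicate 3, 27 without 6, 29 without 8 and 16 without 9). The 6 interaction calls became 2 with the replicate block, 28 without the 6 libraries, and 2 to 11 with single libraries left out (3 without DMSO replicate 3 or 8, 2 without LY replicate 4 or 8, 11 without LY+FGF4 replicate 3). The cause of these moves was not tested.

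No named gene that was called reversed. Dusp6 (0.05) turned to -0.51 with library weights, -0.0075 as the mean of both backgrounds, -0.079 with a pseudocount of 0.1, -0.30 without the 6 libraries, and negative values down to -0.23 for some single libraries left out, whose full range was -0.23 to 0.30. Nanog turned to 0.27 with the listed-gene covariate and spanned -0.61 to 0.092 with single libraries left out, positive for FGF4 replicate 6 and for replicates 2 and 6 of LY+FGF4. Without the 6 libraries Nanog was at -1.14, and Sox2 and Klf2 kept their sign but stood at 0.08 and 0.02. Ybx3 turned to -0.20 with library weights and -0.24 without the 6 libraries. Of the 94 named genes called, 34 were called with the covariate, 59 without the 6 libraries and 61 with the replicate block. TPM gives no read depth, so the precision of low values is unknown.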
